A study of Mus musculus with 16 samples.

Results

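The genes described here encode 9 subunits of the Polycomb complexes: Ezh1, Ezh2, Eed, Suz12 and Jarid2 of Polycomb repressive complex 2 (PRC2), and the chromobox proteins Cbx2, Cbx6, Cbx7 and Cbx8 of Polycomb repressive complex 1 (PRC1). They were chosen by symbol, and they make up 9 of the 24218 genes and 13 of the 33702 RefSeq transcripts in the table. Each of the 9 genes and 13 transcripts was above 0 in at least 1 RNA sample, so that none was lost to the filter on low values. Expression is given in FPKM, the fragments of a transcript per unit of its length and of library size, a scale on which genes can be compared.

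The RNA came from embryoid bodies (EBs), aggregates of differentiating cells, made from the R1 mouse embryonic stem cell line. At day 0 the EBs were 4 days old and had been grown without the cytokine Lif and without retinoic acid (RA). At day 4 they were 8 days old and had received RA at 2 µM for 4 days. The age of the EBs and the exposure to RA therefore cannot be told apart. Each day had 2 biological replicates. From every RNA sample 4 vials were filled and given ERCC spike-ins with IVT mix 1, 2 or 3, or without an IVT mix (mix 4), so 16 libraries were sequenced. The vials are splits of an RNA and not replicates, so an RNA sample is the mean of its 4 vials and n is 2 per day. Whether the vials of the days overlap is given below as a description and not as a test. The share of all genes without such an overlap is not given, so a lack of overlap does not set a member apart. In such bulk RNA, fewer cells of a type and less RNA per cell cannot be told apart.

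PRC2 places methyl groups on lysine 27 of histone H3, a mark of repressed chromatin. Its core joins a catalytic subunit, Ezh2 or Ezh1, to Eed, which binds the finished mark and stimulates the enzyme, and to Suz12, which holds the complex together. Jarid2 is an accessory subunit that helps to bring PRC2 to its target genes. Canonical PRC1 holds a chromobox protein that reads the PRC2 mark, and Cbx2, Cbx6, Cbx7 and Cbx8 are alternative readers within that complex. In embryonic stem cells Cbx7 is known as the main reader, and other Cbx proteins take its place as cells differentiate.

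The vials of mix 3 and mix 4 of day 0 replicate 2 stood apart from the other vials of the same RNA, and the difference followed the GC content of the transcripts. In the mapping statistics of the study these 2 libraries also had more reads within introns than the other vials of that RNA. They had a smaller share of transcripts with reads. Among 20 bins of transcripts ordered by GC content, the median log2 difference between those 2 vials and the other 2 ran from 0.95 in the bin with the lowest GC content to -2.63 in the bin with the highest. Most members moved in the same direction as the transcripts of their GC content. Both Suz12 rows (41.6% and 41.9% GC), both Ezh2 rows (44.1% and 44.4%) and Eed (47.8%) were higher in the 2 vials, and Ezh1 (51.1%) and the Cbx genes (54.9% to 57.6%) were lower. Eed, at a log2 difference of 0.76, and the Jarid2 row NM_001205043 (49.1%), at 0.44, were higher where the transcripts of their GC content had medians of -0.04 and -0.28. In FPKM per gene, Suz12 was 2.13-fold higher in them and Cbx2 was 3.84-fold lower. The medians of the difference between the days also followed GC content, from 0.77 in the lowest bin to -1.47 in the highest, and without the 2 vials from 1.03 to -2.26. The fold changes of the 9 genes are therefore given with all libraries, without the 2 vials, and without them after a GC correction, and the calls in the other gene lists are counted in the same 3 settings. The GC correction brings the libraries to the same medians in each bin, and it can also remove changes between the days that are biological. What part the GC content has in the difference between the days was not tested.

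**Figure D1:**
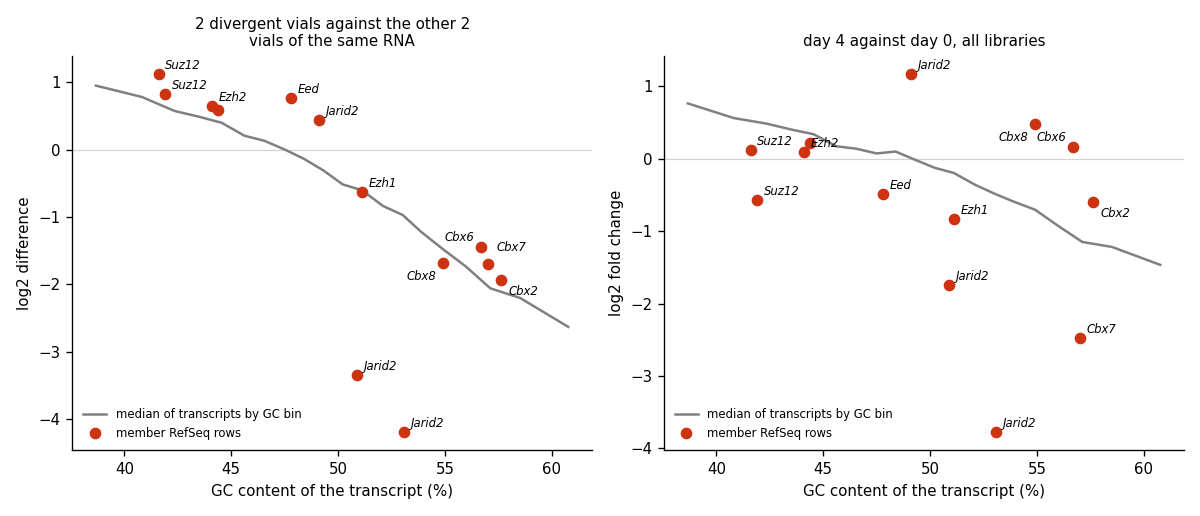
Log2 difference of the 13 RefSeq rows of the members (points) against the GC content of the transcript in percent, with the median of all transcripts in 20 GC bins (line). Left, the vials of mix 3 and mix 4 of day 0 replicate 2 against the other vials of that RNA; right, day 4 against day 0 in all libraries, where Cbx7 lies at -2.48 and the line near it at -1.12.

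The sequences before the start sites are shown for Jarid2, Cbx7, Ezh1, Ezh2 and Suz12. The Jarid2 rows, which differ in both their start and their 3′ end, went in opposite directions. Cbx7 and Ezh1 were lower at day 4 in each setting tried. Ezh2 is the alternative to Ezh1 as catalytic subunit, and Suz12 belongs to the PRC2 core with either. Eed, also lower in each setting, is not shown. Each sequence is the 250 bases before the start site in the RefSeq annotation of GRCm38.p6, the build the authors call mm10. It is read 5′ to 3′ on the strand of the gene. Capitals mark the CCAAT box and its reverse complement ATTGG, which the factor NF-Y binds, and the sequence TTTCCCGC, an E2F-type site.
Jarid2 (chr13:44730524-44730773, plus strand): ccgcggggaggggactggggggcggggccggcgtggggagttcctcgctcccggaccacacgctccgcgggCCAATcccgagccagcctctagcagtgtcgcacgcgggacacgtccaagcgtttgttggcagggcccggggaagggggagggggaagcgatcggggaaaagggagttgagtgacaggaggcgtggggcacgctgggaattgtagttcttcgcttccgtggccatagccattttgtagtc
Jarid2 (chr13:44731021-44731270, plus strand): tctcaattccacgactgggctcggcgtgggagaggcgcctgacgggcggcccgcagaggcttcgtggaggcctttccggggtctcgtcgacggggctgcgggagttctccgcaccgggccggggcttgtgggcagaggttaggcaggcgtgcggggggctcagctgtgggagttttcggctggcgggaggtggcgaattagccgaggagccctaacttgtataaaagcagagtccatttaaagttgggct
Cbx7 (chr15:79932647-79932896, minus strand): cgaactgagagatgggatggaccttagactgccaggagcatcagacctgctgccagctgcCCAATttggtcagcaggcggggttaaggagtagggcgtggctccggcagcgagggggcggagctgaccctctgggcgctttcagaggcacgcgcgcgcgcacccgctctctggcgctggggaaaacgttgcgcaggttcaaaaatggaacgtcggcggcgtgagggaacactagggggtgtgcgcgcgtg
Ezh1 (chr11:101226464-101226713, minus strand): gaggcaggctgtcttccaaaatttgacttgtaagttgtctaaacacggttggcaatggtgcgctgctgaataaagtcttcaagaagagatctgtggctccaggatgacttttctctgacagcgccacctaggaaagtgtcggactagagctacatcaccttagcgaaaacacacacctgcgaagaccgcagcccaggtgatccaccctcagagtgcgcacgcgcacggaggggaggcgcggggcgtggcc
Ezh2 (chr6:47595031-47595280, minus strand): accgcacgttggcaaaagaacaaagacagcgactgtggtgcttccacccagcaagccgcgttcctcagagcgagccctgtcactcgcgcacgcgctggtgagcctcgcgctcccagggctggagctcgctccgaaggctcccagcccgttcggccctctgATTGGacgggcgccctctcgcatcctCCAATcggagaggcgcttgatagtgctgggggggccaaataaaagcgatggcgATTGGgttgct
Suz12 (chr11:79992856-79993105, plus strand): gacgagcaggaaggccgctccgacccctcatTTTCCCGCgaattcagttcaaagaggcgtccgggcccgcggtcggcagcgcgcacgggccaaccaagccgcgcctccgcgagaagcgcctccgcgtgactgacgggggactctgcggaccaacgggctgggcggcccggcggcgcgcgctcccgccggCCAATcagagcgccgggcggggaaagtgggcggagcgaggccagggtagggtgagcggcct

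The first Jarid2 sequence precedes the upstream start at 44730774 and the second the downstream start at 44731271. The Cbx7 sequence precedes a start at 79932646. The annotated gene reaches further upstream, to 79971143, and no sequence before that position is shown. In windows of 300 bases, with 50 bases after the start, 9 windows of 8 members were in the table, with no window for Cbx2. All 9 were rich in CpG, with 17 to 41 CpG and 54.7% to 71.7% GC, while the medians over 32851 mouse windows were 7 CpG and 52.7% GC. The CCAAT box, on either strand, was in 7 of the 9 windows and in 37.4% of all windows. The Ezh1 and Cbx6 windows had none. TTTCCCGC was found in Suz12 alone among the members, and in 1.07% of all windows. TTTGGCGC, the other E2F-type sequence searched, was found in Ezh2 alone among the members, outside the stretch shown, and in 0.514% of all windows. The exact sequence AGGTCA, a form of the element that RA receptors bind in pairs, was in 0 of the 9 member windows and in 16.3% of all windows. Its direct repeat with a spacer of 5 bases was in 0.00913% of all windows. Other forms of the element were not searched, so these counts do not show that the member windows lack it.

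Of the 9 members, 1 passed the test between the days with all libraries: Cbx7 was lower at day 4. The test was limma on log2(FPKM + 0.1) over 20545 genes, and a gene is called here at a Benjamini-Hochberg adjusted p of at most 0.05. With this rule 16% of all genes were called higher and 14.4% lower at day 4. Of the members, 0 of 9 were called higher and 1 of 9 lower, a count too small to set apart from that background. Without the 2 vials, 2 members (Ezh2 and Jarid2) were called higher and 3 (Ezh1, Cbx2 and Cbx7) lower, with 27.2% and 34.1% of all genes called in these directions. After the GC correction of all libraries, 4 members (Jarid2, Cbx2, Cbx6 and Cbx8) were called higher and 2 (Ezh1 and Cbx7) lower, with 27.6% and 24.3% of all genes called. With the GC correction and without the 2 vials, the members called higher were these 4 and those called lower were Ezh1, Eed, Suz12 and Cbx7, with 34.1% and 30.4% of all genes. The direction was the same in all 19 alternative settings for Cbx7, Ezh1, Eed and Jarid2, and it was not the same for Ezh2, Suz12, Cbx2, Cbx6 and Cbx8.

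**Figure D2:**
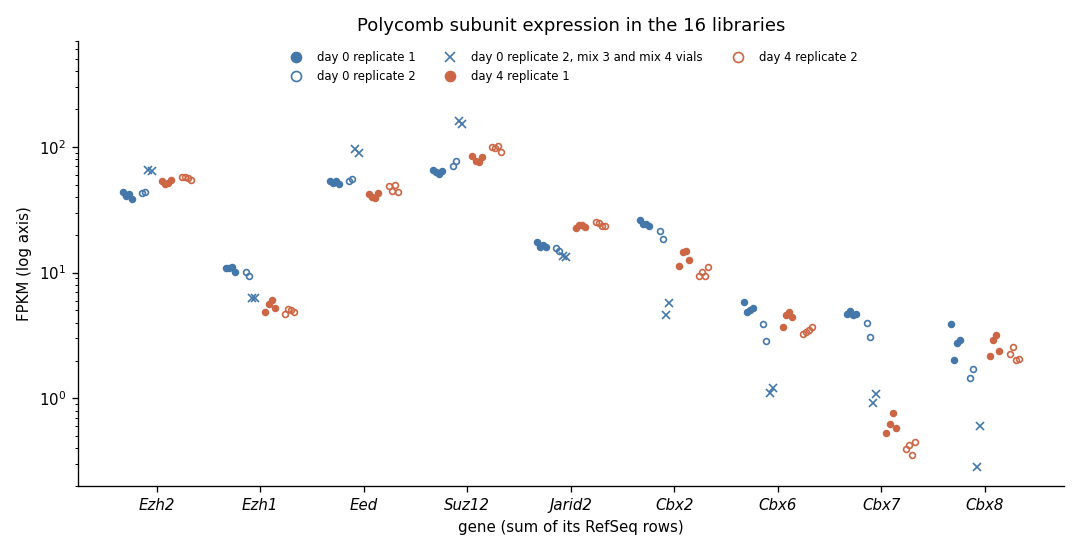
FPKM of the 9 members (log axis) in each of the 16 libraries, by day and replicate, with the vials of mix 3 and mix 4 of day 0 replicate 2 as crosses. Cbx7 lies at 0.914 to 4.95 FPKM in all day 0 libraries and at 0.354 to 0.764 FPKM in all day 4 libraries.

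Ezh2, the catalytic subunit of dividing cells, had 41.4 FPKM in replicate 1 and 54.2 FPKM in replicate 2 before RA. After RA the replicates had 52.5 and 56.7 FPKM. The vials of day 0 lay at 38.8, 43.3 and 65.6 FPKM (lowest, median and highest of 8) and those of day 4 at 50.3, 54.2 and 58.0 FPKM. The groups overlapped: the 2 divergent vials of day 0, with a mean of 65.2 FPKM, lay above day 4, and the other 6 vials, up to 43.6 FPKM, lay below it. The log2 fold change from day 0 to day 4 was 0.20 ± 0.19 (SE, adjusted p = 0.460). It was 0.37 ± 0.08 without the 2 vials (adjusted p = 0.0219), and with the GC correction added to this it was -0.09 ± 0.04 with an adjusted p of 0.120.

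Ezh1, the catalytic subunit with the weaker methyltransferase activity, was lower at day 4. Its level was 10.7 and 8.06 FPKM in the RNA samples before RA, against 5.46 and 4.90 FPKM in those after RA. The 8 vials of day 0 lay between 6.31 and 11.1 FPKM (median 10.1) and those of day 4 between 4.69 and 6.06 FPKM (median 5.05). The vials of the days, from 2 RNA samples each, did not overlap, and the 2 divergent vials were the lowest of day 0. The log2 fold change was -0.83 ± 0.22 (SE), a 1.78-fold lower level that did not pass the threshold (adjusted p = 0.0618). It was -0.97 ± 0.12 without the 2 vials (adjusted p = 0.00370), and with the GC correction in addition -0.63 ± 0.05 (adjusted p = 0.000680).

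The share of Ezh1 in the summed FPKM of Ezh1 and Ezh2 was 20.6% and 12.9% in the RNA samples of day 0 and 9.43% and 7.96% at day 4. The difference of the means was 8.06 percentage points, with an exact permutation p of 0.333 (two-sided), the smallest that 2 samples against 2 can give. In the 2 divergent vials the share was 8.78% and 8.87%, within the range of day 4 (7.48% to 10.4% over 8 vials), whereas the other vials of day 0 lay between 17.8% and 20.9%. Without these vials day 0 replicate 2 was at 18.5%. After the GC correction the shares were 14.4% and 13.5% at day 0 and 10.5% and 10.1% at day 4, a difference of 3.62 points in the same direction.

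The RNA samples of day 0 held Eed at 52.2 and 73.5 FPKM, and those of day 4 held it at 41.2 and 46.9 FPKM. No vial of day 4 (39.3 to 50 FPKM, median 43.4) reached the lowest vial of day 0 (50.3 to 96.2 FPKM, median 53.8), and the 2 divergent vials were the highest of all. Its log2 fold change was -0.49 ± 0.23 (SE, adjusted p = 0.173). Without the 2 vials it was -0.28 ± 0.10 (adjusted p = 0.0710), and with the GC correction as well it was -0.35 ± 0.08 (adjusted p = 0.0158).

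Suz12 had the highest level of the 9 members. Its values were 63.2 and 116 FPKM for the replicates of day 0, compared with 80.4 and 97.9 FPKM for the replicates of day 4. The 2 divergent vials averaged 157 FPKM and the other vials of that RNA 74.0 FPKM, so the spread within day 0 replicate 2 was larger than the difference between the days. The log2 fold change was 0.05 ± 0.35 (SE, adjusted p = 0.916) with all libraries and 0.37 ± 0.15 (adjusted p = 0.0896) without the 2 vials. It was -0.31 ± 0.07 (adjusted p = 0.0152) with the GC correction in addition, so that the sign depended on the processing.

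**Figure D3:**
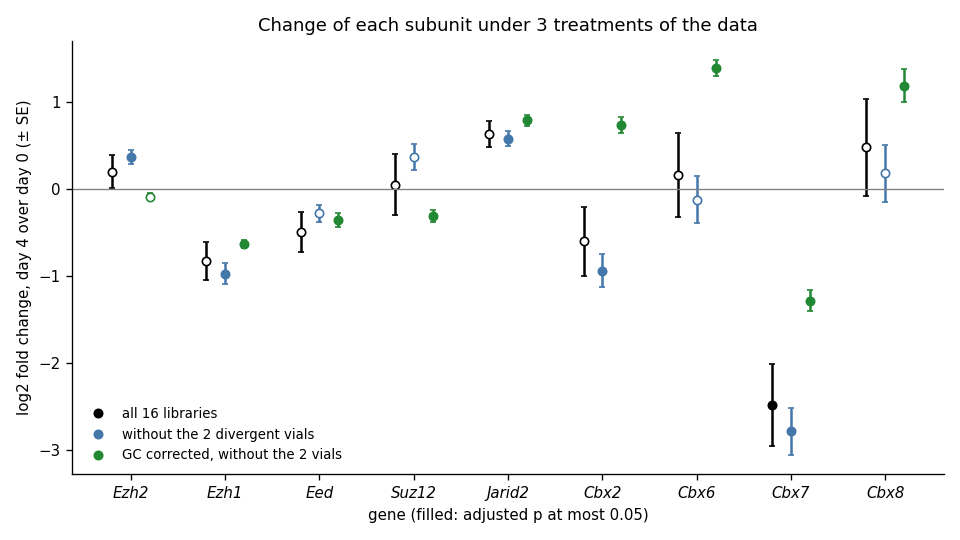
Log2 fold change of each member from day 0 to day 4 (points, with the SE of limma as bars), with all 16 libraries, without the 2 divergent vials, and without them after the GC correction; filled points have an adjusted p of at most 0.05. Cbx7 and Ezh1 stay below 0 and Jarid2 above 0, while Cbx2 goes from -0.60 to 0.74.

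Jarid2 was higher at day 4 in each setting. The gene, the sum of 3 RefSeq rows, came to 16.4 and 14.4 FPKM before RA, and to 23.3 and 24.2 FPKM after it. The vials of day 0 lay between 13.4 and 17.4 FPKM (median 15.8) and those of day 4 between 22.5 and 25.2 FPKM (median 23.6), with no overlap. The log2 fold change of 0.63 ± 0.15 (SE), 1.54-fold, just missed the threshold (adjusted p = 0.0517). It was 0.58 ± 0.09 without the 2 vials (adjusted p = 0.00652), and 0.79 ± 0.06 (adjusted p = 0.000504) with the GC correction in addition.

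The 3 Jarid2 rows encode the same 1234 residues and differ at their ends. NM_001205044 starts at position 44730774 of chromosome 13, NM_021878 at 44730823 and NM_001205043 at 44731271. Their 3′ ends, in the last exon from 44919800, lie at 44920108, 44920995 and 44921643, so that the start and the end of the transcript change together. The rows are told apart by both ends, and which end differs between the days was not tested. The authors judged transcript-level testing of expression changes to lack accuracy or precision in every tool they tried. On quantification, which they judged apart from testing, they found that minor isoforms of loci with several spike-ins could be measured properly. The first exons of the rows with the upstream start are 64.3% and 69.6% GC, and that of NM_001205043 is 40.7% GC.

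The rows went in opposite directions. NM_001205043, with the downstream start, was between 8.61 and 13.5 FPKM in the vials of day 0 (median 9.79) and between 22.0 and 25.1 FPKM in those of day 4 (median 23.1). It rose by a log2 fold change of 1.17 ± 0.18 (SE, adjusted p = 0.0325), and by 1.29 ± 0.08 (adjusted p = 0.00314) without the 2 vials. NM_001205044 lay between 0.0390 and 7.52 FPKM at day 0 (median 4.80) and between 0 and 0.559 FPKM at day 4 (median 0.165). It fell, with a log2 fold change of -3.78 ± 0.70 (adjusted p = 0.0437), and of -4.23 ± 0.45 (adjusted p = 0.00576) without the 2 vials, on a scale where the offset of 0.1 FPKM understates the change of such low values. NM_021878 was at most 1.73 FPKM in any library, and it ranged from 0 to 1.73 FPKM among the vials of day 0 replicate 1, a single RNA. Its log2 fold change was -1.74 ± 0.36 (adjusted p = 0.0512) with all libraries and -2.18 ± 0.27 (adjusted p = 0.00777) without the 2 vials. After the GC correction without the 2 vials the 3 rows kept these directions, at 1.35 ± 0.08, -3.60 ± 0.38 and -1.91 ± 0.26 for NM_001205043, NM_001205044 and NM_021878 (adjusted p = 0.00137, 0.00434 and 0.00761).

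Together the upstream-start rows made up 43.4% and 19.7% of Jarid2 in the RNA samples of day 0 and 2.09% and 0.919% at day 4. The 2 divergent vials had 0.572% and 2.32%, within the range of day 4 (0.614% to 2.90% over 8 vials) or below it, although the other vials of the same RNA had 38.5% and 33.0%. Vials of the same RNA thus differed in this share as much as the days did. NM_001205044 was 18.3-fold lower in the 2 vials than in the other 2, a log2 difference of -4.20, while the median of transcripts of its GC content (53.1%) was -0.99. Of the libraries outside these 2, the 6 of day 0 lay between 33.0% and 47.7%, above all 8 of day 4.

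**Figure D4:**
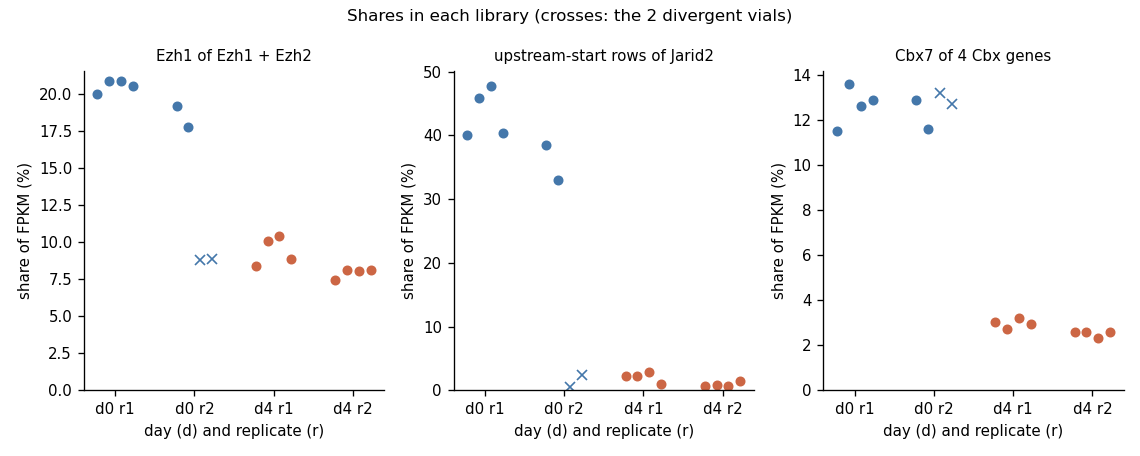
Share in percent of FPKM in each library, by day (d) and replicate (r): Ezh1 in Ezh1 and Ezh2, the upstream-start rows in Jarid2, and Cbx7 in 4 Cbx genes. The 2 divergent vials (crosses) lie with day 4 or near it in the left and middle panels (8.78% and 8.87%, 0.572% and 2.32%) and with day 0 in the right panel (13.2% and 12.7%).

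Suz12 and Ezh2 also had 2 rows each. The Suz12 row NM_001163018, which lacks an exon of 69 bases at 79999057 to 79999125 of chromosome 11, made up 12.0% and 11.3% of Suz12 at day 0 and 7.64% and 7.44% at day 4. Its vials overlapped between the days, at 9.08% to 13.8% in the 8 vials of day 0 and 5.73% to 9.20% in those of day 4, and its level did not pass the test with all libraries (log2 fold change -0.57 ± 0.33, adjusted p = 0.282) or without the 2 vials (-0.33 ± 0.16, adjusted p = 0.178). With the GC correction it was called lower, at -1.04 ± 0.13 (adjusted p = 0.0133), and at -0.99 ± 0.09 (adjusted p = 0.00296) without the 2 vials as well. The shares of the Suz12 rows in the 2 divergent vials were within the range of the other day 0 vials. The Ezh2 row NM_001146689, which encodes 742 residues in place of 746, stayed near the same share, with 13.0% and 12.1% at day 0 and 11.0% and 12.4% at day 4. Among the 28262 rows tested, 10.2% were called higher and 8.65% lower at day 4. Of the 13 member rows, 1 was called higher (NM_001205043) and 2 lower (NM_001205044 and the Cbx7 row NM_144811, adjusted p = 0.0499). Without the 2 vials, 2 were called higher and 5 lower, with 22.3% and 29.5% of all rows called. With the GC correction 4 were called higher and 5 lower, with 18.7% and 17.3% of all rows, and with both changes 4 and 6, with 26.9% and 26.1% of all rows.

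Cbx7, on chromosome 15 with its single row NM_144811 at 79915807 to 79932652, had the largest change of the 9 genes with all libraries. The replicates of day 0 showed 4.74 and 2.25 FPKM, those of day 4 only 0.625 and 0.407 FPKM. The lowest vial of day 0 (0.914 FPKM, a divergent vial) was above the highest of day 4 (0.764 FPKM), and the medians of 8 vials were 4.29 and 0.489 FPKM. Cbx7 fell by 2.48 ± 0.47 on the log2 scale (SE, 5.56-fold, adjusted p = 0.0317). It fell by 2.78 ± 0.27 (adjusted p = 0.00238) without the 2 vials and by 1.28 ± 0.12 (2.43-fold, adjusted p = 0.000930) with the GC correction in addition. Leaving out day 0 replicate 1 gave -1.96 (adjusted p = 0.0634), and leaving out day 4 replicate 1 or 2 gave -2.73 and -2.22 (adjusted p = 0.216 and 0.267). Without either day 4 replicate 0 genes were called at all, at 4865 and 4575 genes with an unadjusted p of at most 0.05, so these 2 settings say nothing of the call of Cbx7. The median change of transcripts of its GC content, 57.0%, was -1.12 on the log2 scale with all libraries.

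Cbx2 had the highest level of the 4 Cbx members at day 0. Before RA its replicates had 24.7 and 12.6 FPKM, and after the 4 days of RA they had 13.3 and 10.0 FPKM. The 2 divergent vials averaged 5.16 FPKM, below all vials of day 4 (9.46 to 14.9 FPKM, median 11.1), and the other 6 vials of day 0 (18.6 to 26.4 FPKM, median 23.9) were above all of them. Between the days the log2 fold change was -0.60 ± 0.40 (SE, adjusted p = 0.309) with all libraries and -0.94 ± 0.19 (adjusted p = 0.0159) without the 2 vials. With the GC correction the sign turned, to 0.71 ± 0.13 (adjusted p = 0.0156) with all libraries and 0.74 ± 0.09 (adjusted p = 0.00249) without the 2 vials. Cbx2 is the member with the highest GC content (57.6%), and transcripts of that content had a median change of -1.17.

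Cbx6, also on chromosome 15, had 5.25 FPKM in replicate 1 and 2.27 FPKM in replicate 2 before RA. For day 4 the values were 4.38 and 3.44 FPKM. Its vials overlapped between the days, from 1.11 to 5.79 FPKM at day 0 (median 4.40) and from 3.23 to 4.82 FPKM at day 4 (median 3.69). The fit gave a log2 fold change of 0.16 ± 0.48 (SE, adjusted p = 0.800), and -0.12 ± 0.27 (adjusted p = 0.729) without the 2 vials. Relative to transcripts of like GC content it was higher at day 4, with 1.39 ± 0.09 (adjusted p = 0.000316) after the GC correction without the 2 vials.

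Cbx8 had the lowest level of the 9 members before RA, 2.89 and 1.01 FPKM in the replicates. It reached 2.68 and 2.22 FPKM in the replicates after RA. The vials overlapped between the days, at 0.285 to 3.89 FPKM (median 1.86) and 2.02 to 3.21 FPKM (median 2.32). Its log2 fold change was 0.48 ± 0.56 (SE, adjusted p = 0.534), and 0.18 ± 0.33 (adjusted p = 0.657) without the 2 vials. After the GC correction without the 2 vials it was 1.19 ± 0.19 (adjusted p = 0.00541). Cbx8 lies next to Cbx2 on chromosome 11, at 119036303 to 119040913, with Cbx2 at 119023019 to 119031275.

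The share of Cbx7 among the 4 chromobox members lay in the 2 divergent vials within the range of the rest of day 0, unlike its level. Cbx7 made up 12.6% and 12.4% of the summed FPKM of Cbx2, Cbx6, Cbx7 and Cbx8 at day 0 and 2.98% and 2.53% at day 4. In the 2 divergent vials its share was 13.2% and 12.7%, as in the other libraries of day 0 (11.5% to 13.6%) and above all of day 4 (2.31% to 3.22%). The GC correction left these shares at 12.6% and 12.5% against 3.0% and 2.55%. Cbx2 was the largest part in each RNA sample, with 65.7% and 69.5% at day 0 and 63.4% and 62.3% at day 4. After the GC correction the Cbx2 shares of the days overlapped, at 62.4% and 68.7% against 64.7% and 64.4%.

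The shares of Cbx6 and Cbx8 were larger at day 4. Cbx6 had 14% and 12.5% at day 0 and 20.9% and 21.4% at day 4, and Cbx8 had 7.71% and 5.56% at day 0 and 12.7% and 13.8% at day 4. After the GC correction Cbx6 had 14.5% and 13.3% against 20.8% and 21.2%. The Cbx8 shares then came closer, at 10.4% and 5.55% against 11.5% and 11.8%, and the difference of the means went from 6.64 points to 3.67, and to 3.11 without the 2 vials as well. For each of the 4 genes the RNA samples of the days did not overlap with all libraries, with an exact permutation p of 0.333, the smallest the design allows.

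**Figure D5:**
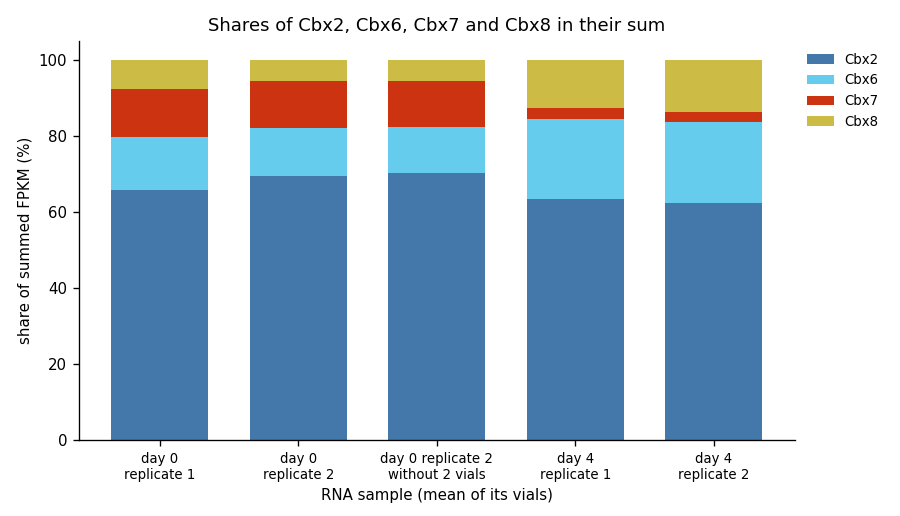
Share of Cbx2, Cbx6, Cbx7 and Cbx8 in their summed FPKM (percent, stacked from 0) in the 4 RNA samples, and in day 0 replicate 2 without the 2 divergent vials. The Cbx7 part is 12.3% to 12.6% in the 3 bars of day 0 and 2.98% and 2.53% at day 4.

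The counts in this and the following lists stand beside the shares of all genes called higher and lower. These were 16% and 14.4% with all libraries, 27.2% and 34.1% without the 2 vials, and 34.1% and 30.4% with the GC correction in addition. The counts of these small lists were not tested against these shares. Among the other subunits that bind PRC2, 0 of 7 genes were called higher and 1 lower with all libraries, with a median log2 fold change of -0.01 (all genes -0.02). The gene called was Epop, an accessory subunit of stem cells, which fell by 3.62 ± 0.45 on the log2 scale (SE, adjusted p = 0.0140) from 17.3 and 8.35 FPKM to 1.05 and 0.738 FPKM. It stayed called without the 2 vials (-3.96, adjusted p = 0.000976) and with the GC correction in addition, where the change was smaller (-1.90, adjusted p = 0.000697). The most abundant genes not called were the histone-binding Rbbp7 (0.28 ± 0.20, adjusted p = 0.339) and Rbbp4 (0.42 ± 0.17, adjusted p = 0.140). Both were called higher without the 2 vials (0.44 and 0.53) and neither after the GC correction as well (0.02 and 0.03). In these settings 3 of the 7 were called higher and 3 lower, and 2 higher and 2 lower.

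Of 9 other genes listed as canonical PRC1 subunits 2 were called higher and 0 lower, with a median log2 fold change of 0.60. The list includes Ring1 and Rnf2, which are not particular to canonical PRC1. Leaving out the 2 vials gave 5 called higher and 3 lower, with 27.2% and 34.1% of all genes called. With the GC correction in addition 6 were called higher and 1 lower, with 34.1% and 30.4% of all genes called. Bmi1, the Pcgf subunit also called Pcgf4, rose from 5.84 and 9.78 FPKM to 33.9 and 40.5 FPKM (log2 fold change 2.28 ± 0.31, adjusted p = 0.0166). Rnf2, the catalytic subunit that places ubiquitin on histone H2A, rose from 49.6 and 78.6 FPKM to 154 and 178 FPKM (1.41 ± 0.28, adjusted p = 0.0343). Both were also called without the 2 vials and after the GC correction without them. The most abundant not called with all libraries were the Polyhomeotic genes Phc2 (-1.03 ± 0.60, adjusted p = 0.252) and Phc1 (-1.37 ± 0.42, adjusted p = 0.0807). Phc2 was called lower without the 2 vials (-1.44, adjusted p = 0.0229), and its sign turned to a call higher with the GC correction in addition (0.60, adjusted p = 0.00248). Phc1 was called lower in both settings (-1.63 and -0.59, adjusted p = 0.00696 and 0.00588).

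Of the variant PRC1 subunits, which form complexes without a Cbx reader, 10 of 11 were in the table and Auts2 was not analysed here. With all libraries 0 were called higher and 3 lower, with a median of -0.47. Pcgf5 had a log2 fold change of -2.70 ± 0.19 (adjusted p = 0.00567), L3mbtl2 of -2.59 ± 0.47 (adjusted p = 0.0294) and Rybp of -0.78 ± 0.18 (adjusted p = 0.0436). Yaf2, the paralog of Rybp, was at 1.07 ± 0.27 (adjusted p = 0.0536), and Pcgf3 at 0.20 ± 0.13 (adjusted p = 0.321). In either other setting 1 was called higher and 6 lower, where 34.1% and 30.4% of all genes were called lower. The calls of Pcgf5, L3mbtl2 and Rybp were kept in both, and Yaf2 was called higher in both (1.37 and 0.81, adjusted p = 0.00196 and 0.000718). Pcgf3 was called lower with the GC correction (-0.28, adjusted p = 0.00748), against its sign with all libraries.

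The genes that counter or accompany the Polycomb marks included 2 called genes with all libraries, Asxl3 and Kmt2c, and both were also called higher without the 2 vials and with the GC correction in addition. Of the PR-DUB complex, which removes ubiquitin from H2A, 1 of 4 genes was called, Asxl3, which rose from 0.127 and 0.162 FPKM to 0.943 and 0.992 FPKM (2.13 ± 0.21, adjusted p = 0.00933). The abundant Bap1 (-1.0 ± 0.38, adjusted p = 0.121) and Asxl1 (-0.49 ± 0.16, adjusted p = 0.0920) were not called, and the median was -0.36. Both were called lower without the 2 vials (-1.30 and -0.59), and Bap1 alone of the pair with the GC correction in addition (-0.23, adjusted p = 0.00767).

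Of the H3K27 demethylases, Kdm6a (0.18 ± 0.22, adjusted p = 0.556) and Kdm6b (-1.48 ± 0.50, adjusted p = 0.0971), 0 of 2 were called with all libraries, with a median of -0.65. When the 2 vials were left out, Kdm6a was called higher (0.35, adjusted p = 0.0466) and Kdm6b lower (-1.78, adjusted p = 0.00749). With the GC correction in addition Kdm6a was called lower (-0.27, adjusted p = 0.00588) and Kdm6b was not called (-0.18, adjusted p = 0.240).

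The HP1 genes, chromobox proteins that read another histone mark, had 0 of 3 called with all libraries, with a median of 0.31, and Cbx3 (0.31 ± 0.29, adjusted p = 0.457) and Cbx5 (0.39 ± 0.26, adjusted p = 0.299) were the most abundant. All 3 were called higher without the 2 vials (median 0.58), and with the GC correction in addition 1 of 3 (median -0.01). In these settings 27.2% and 34.1% of all genes were called higher. Of the trithorax methyltransferases 1 of 4 was called, Kmt2c, which rose (1.05 ± 0.25, adjusted p = 0.0472), and Kmt2b (-1.93 ± 0.52, adjusted p = 0.0610) and Kmt2a (-0.65 ± 0.22, adjusted p = 0.10) were not, with a median of -1.02. Without the 2 vials 1 was called higher and 3 lower, among them Kmt2b at -2.25 and Kmt2a at -0.68. With the GC correction in addition 1 was called higher and 2 lower, with Kmt2b at -0.49 (adjusted p = 0.00988), Kmt2a at -0.40 (adjusted p = 0.0155) and a median of -0.25.

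Over the 16 libraries, which come from 4 RNA samples and share the GC-linked difference, the genes with a pattern most like that of Cbx7 among 11629 genes with a mean of at least 1 FPKM were Mars1 (Pearson r = 0.999), Nup188 (0.998) and Tagln2 (0.998), on log2(FPKM + 0.1). For Cbx2 they were Bsg (0.999), Capns1 (0.998) and Mau2 (0.998), and for Cbx6 Mdk (0.996), Kalrn (0.995) and Mllt6 (0.993). For Ezh1 they were Dhcr7 (0.996), Mical3 (0.996) and Cdkn1a (0.995), and for Ezh2 Vcpip1, Pbrm1 and Psip1 (0.989 each). Without the 2 vials, over 14 libraries, these 15 correlations lay between 0.968 and 0.999. The genes were picked over all 16 libraries, which include these 14, so the second values are no separate check.

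Marker genes of other states were compared between the days in the same way, to be read beside the shares of all genes called that are given above. Of 10 pluripotency genes 9 were called lower and 0 higher in each of the 3 settings, and their summed level went from 151 to 207 FPKM in the RNA samples of day 0 to 9.08 to 13.8 FPKM at day 4, with none at 0. Among them, Tdgf1 fell by 6.71 ± 0.22 and Pou5f1 fell by 5.91 ± 0.50 on the log2 scale (adjusted p = 0.00462 and 0.00743). Of 8 genes of the RA response 5 were called higher and 1 lower with all libraries, and 6 and 1 in both other settings (sums of 65.5 to 68.2 FPKM and 243 to 268 FPKM). Rarb rose by 8.50 ± 0.17 (adjusted p = 0.00462), while Stra8 was listed at 0 at day 0. The gene called lower in each setting was Cyp26a1, which fell by 2.50 ± 0.15 with all libraries (adjusted p = 0.00476), from 48.9 and 52.4 FPKM to 8.43 and 9.34 FPKM. Of 10 neural genes 3 were called higher and 5 lower with all libraries, 4 and 5 without the 2 vials, and 5 and 4 with the GC correction in addition (36.3 to 53.1 FPKM and 29.2 to 30.5 FPKM), with Neurog2 at 0 in day 0 replicate 1. Of 10 genes of other lineages 4 were called higher and 4 lower with all libraries or without the 2 vials, and 5 and 4 with the GC correction in addition (189 to 195 FPKM and 104 to 107 FPKM). Of 10 cell cycle genes 0 were called higher in any of the 3 settings, and 3 were called lower with all libraries, 6 without the 2 vials and 10 with the GC correction in addition (1544 to 1621 FPKM and 1014 to 1109 FPKM). The part of these cell states in the changes of the Polycomb genes was not tested.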

How the data were processed

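The authors mapped paired-end reads of stranded, ribosome-depleted total RNA with bowtie2 2.1.0 to the RefSeq transcripts of mm10 and the spike-in sequences, estimated abundances with RSEM 1.2.18 and deposited FPKM per transcript with a TMM factor for each library. Fragment counts were not used here, so the depth behind single values is unknown and no counting error is given. All 16 columns were assigned by sample titles. The labels give no replicate number, so the replicate of each library was taken from the supplementary sample list of the study. The p-values of the fits rest on the spread between 2 RNA samples of each day, moderated by limma with a trend over all genes. At day 0 this spread includes the difference of the 2 divergent vials. The SE of Suz12, for example, was 0.35 with all libraries and 0.15 without them.

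For this report the FPKM of the RefSeq rows of a symbol were summed (99.2% of 33702 rows had a symbol) and averaged over the 4 vials of each RNA sample. log2(FPKM + 0.1) of 2 against 2 RNA samples was fitted with limma 3.58.1 (lmFit, eBayes with a trend, R 4.3.3), leaving out features at 0 in all 4, with Benjamini-Hochberg adjustment over all features tested and a threshold of 0.05. The fit was run on simulated data with 200 changed features, drawn independently and without a difference linked to GC content. That run therefore gives no measure of the fit under such a difference. Shares were compared with the exact permutation test; those of the Cbx genes were taken over the 4 members, since 1 further gene planned for the sum is not reported here. The GC correction scaled each library so that its medians in 20 bins of GC content, over 13894 transcripts with a mean of at least 1 FPKM, met the mean of the libraries; 97.4% of transcripts had a GC content, from GENCODE vM21. Promoter sequences are those of RefSeq on GRCm38.p6, and 8 of the 9 members matched. Alternatives were other pseudocounts, filters, TPM, no trend, a replicate block, the 16 libraries with a random block, single mixes, and each RNA sample or the 2 divergent vials left out. The GC correction without these vials was added after the data were seen.

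The members and the gene lists were chosen with earlier results of these data known. Of each list the text names at most the 4 called genes with the lowest p and the 2 most abundant genes not called, with only examples of the marker lists. Python 3.11.15, numpy 2.4.6, pandas 2.3.3 and matplotlib 3.10.9 were used.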

Additional observations from a re-analysis of the deposited data

How the results depend on the processing

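Of 19 alternative settings, Cbx7, Ezh1 and Eed stayed lower and Jarid2 higher at day 4 in all 19, and the rows of Jarid2 and the shares of Ezh1 and of the 4 Cbx genes kept their direction in all settings run for them. The call of Cbx7 was lost with a pseudocount of 1 or without a filter (0 members lower in either), and with mix 3 or mix 4 only (0 lower in either), the mixes of the divergent vials. Members called higher, members called lower and all genes called were 4, 2 and 10667 with the GC correction, 2, 3 and 12528 without the 2 vials, 4, 4 and 13168 with both, 1, 2 and 9423 for the 16 libraries with a random block, 3, 3 and 12319 for mix 1 and 1, 2 and 9632 for mix 2, beside 0, 1 and 6247 with all libraries. The fit with a random block takes the vials, splits of an RNA, as its observations, with a correlation shared by all genes. Its calls therefore do not rest on 2 RNA samples per day alone. All genes called were 476 with mix 3 and 1117 with mix 4. With genes of a mean of at least 1 FPKM, 4146 genes and 1 higher member (Jarid2) were called, and Jarid2 was also the 1 higher member with TPM and without a trend. TPM moved the median of all genes by 0.26 (log2). Of the 13 member rows, 4 higher and 5 lower were called with the GC correction, 2 and 5 without the 2 vials, 4 and 6 with both, and 0 lower with a pseudocount of 1.

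The replicate numbers may pair the samples. The differences between replicate 1 and 2 correlated between the days (r = 0.768 over 11629 genes, 0.598 over 11698 without the 2 vials). The part of the GC-linked difference between libraries in this correlation was not tested. The 2 pairs, with numbers from outside the labels, do not establish a pairing. With the replicate block, 1 member was called higher (Jarid2) and 2 lower (Ezh1, Cbx7), with 10574 genes in all, and 4 member rows were lower.

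With each RNA sample left out, in fits that assume a lone sample varies like the other day, 0 to 1 members were called higher, 0 to 2 lower and 0 to 9821 genes in all. The 0 genes arose without either day 4 sample, with 4865 and 4575 genes at an unadjusted p of at most 0.05. Of the member rows 0 to 1 were called higher and 0 lower. Without day 0 replicate 1, Jarid2 was the only member called; without day 0 replicate 2, Ezh1, Cbx7 and Jarid2 were called.

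The sign turned for 5 genes. Ezh2 was at -0.13 with the GC correction and -0.09 with it and without the 2 vials. Suz12 was at -0.43 and -0.31 in these settings, -0.19 with mix 3, -0.18 with mix 4, and between -0.38 (without day 0 replicate 1) and 0.49 with an RNA sample left out, -0.09 of these without day 4 replicate 2. Cbx2 was at 0.71 and 0.74 with the GC corrections, 0.16 with mix 3 and 0.02 with mix 4. Cbx6 was at -0.12 without the 2 vials, -0.46 with mix 1, and between -0.42 (without day 0 replicate 2) and 0.75 with an RNA sample left out, -0.01 of these without day 4 replicate 1. Cbx8 was at -0.11 with mix 1 and between -0.24 (without day 0 replicate 2) and 1.2 with an RNA sample left out. Of the rows of genes with more than 1, a Suz12 row and both Ezh2 rows turned, and the Suz12 row NM_001163018 did not: NM_199196 was at -0.36 and -0.24 with the GC corrections and between -0.32 (without day 0 replicate 1) and 0.56 with an RNA sample left out, -0.03 of these without day 4 replicate 2. NM_001146689 was at -0.25 and -0.19 with the GC corrections, 0.28 without the 2 vials and -0.04 without day 0 replicate 1 or day 4 replicate 2, and NM_007971 at -0.12 and -0.08 with the GC corrections. The cause was not tested.

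The shares moved by more than the SD between replicates in some settings, in percentage points of day 4 minus day 0. The Ezh1 share was -3.62 and -4.05 with the GC corrections. The Cbx2 share was -0.950 and -1.14 with them and -2.0 with mix 4. The Cbx6 share was 7.07 with the GC correction and 6.53 with mix 3. The Cbx7 share was -9.37 with mix 1, -10.1 with mix 3 and -10 with mix 4. The Cbx8 share was 3.67 and 3.11 with the GC corrections, 8.25 with mix 2 and 4.49 with mix 4. With an RNA sample left out the ranges were -11.9 to -4.24 for Ezh1, -6.62 to -2.85 for Cbx2, 7.14 to 8.58 for Cbx6, -10 to -9.55 for Cbx7 and 5.57 to 7.72 for Cbx8.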
